A study of Mus musculus with 6 samples.

Results

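The 10 genes described here encode transcription factors that set and maintain the identity of lung epithelium: Nkx2-1, Foxa1, Foxa2, Gata6, Sox2, Sox9, Id2, Cebpa, Klf5 and Foxp2. They were taken by symbol from the 24521 genes of the deposited table of normalized values, all 10 were present, and their raw counts were joined by Ensembl identifier. All 10 had enough reads to be among the 19042 genes tested. Polyadenylated RNA was measured in mouse lung at E18.5, close to birth, from whole lobes that had not been aerated. There were 3 wild-type libraries and 3 libraries of Mll3FDC/FDC genotype, which the labels call Mll3 knockout. Mll3 is the older name of Kmt2c, which encodes a histone H3 lysine 4 methyltransferase that acts mainly at enhancers. No Cre driver is named in the labels, and neither the strain nor the deleted part of the gene is given, and nothing states that samples of 1 genotype are different embryos, so each p-value reflects only how much these particular samples vary. In whole lung, fewer cells of a type and less RNA per cell cannot be told apart.

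As background, NKX2-1 marks the lung field of the foregut and later drives surfactant and airway secretory genes. FOXA1 and FOXA2 are forkhead pioneer factors that open chromatin in foregut epithelium, and GATA6 is a zinc-finger partner of NKX2-1. The growing lung is divided into SOX2-positive proximal airway epithelium and SOX9- and ID2-positive distal tips, from which alveolar cells arise. Towards birth CEBPA and KLF5 take part in alveolar maturation, and FOXP2 is a repressor of the distal epithelium.

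Total reads ran from 20158689 to 23305306 per library. Kmt2c itself had 162, 179 and 162 CPM (reads of a gene relative to the library's total, after TMM scaling for composition) in wild types 1, 2 and 3 and 143, 171 and 159 CPM in knockouts 1, 2 and 3, a log2 fold change of -0.09 ± 0.08 (SE) with an adjusted p of 0.74 in edgeR's quasi-likelihood test. A count over the whole gene does not test the label if RNA of undeleted exons persists. Wild type 1 stood apart in 6 genes of squamous oesophageal epithelium, with a summed level of 605 CPM against 2.13 to 9.19 CPM in the other 5 libraries. Knockout 3 held 59951 reads of Xist, an RNA of female cells, and the others held 6 to 27. By this mark sex was not balanced between the genotypes, and no model included it as a term. The sample titles carry a prefix whose meaning is not stated. Wild types 1 and 2 and knockout 1 share the first prefix, and wild type 3 and knockouts 2 and 3 share the second. The 12 pan-epithelial genes, among them Epcam and Cdh1, were all detected, with mean log2 CPM values of 6.79, 6.69 and 6.87 in wild types 1 to 3 and 6.75, 6.68 and 6.79 in knockouts 1 to 3.

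Promoter sequences of 4 of the factors are shown because the levels of these genes frame the results below: Nkx2-1 as the most abundant, Id2 as a distal gene with a higher mean in knockout lungs, Sox2 as the gene that varied most between libraries, and Foxa1 as a gene whose genotypes overlapped. Each window runs from 250 bases before to 50 bases after a RefSeq transcript start (build GRCm38.p6, the assembly also called mm10), 5′ to 3′ on the strand of the gene. Of the 10 members, 6 had windows among those examined, and Gata6, Sox9, Klf5 and Foxp2 had none. The windows examined did not cover every chromosome, so this does not show that RefSeq lacks a window for each of these genes. Capitals mark matches on either strand to the GC box GGGCGG, the CCAAT box CCAAT, the TATA box TATAAA, the forkhead motif TGTTTAC or the E-box CACGTG; no matches of different motifs overlap in these windows.
Nkx2-1, chr12:56536859-56537158, minus strand: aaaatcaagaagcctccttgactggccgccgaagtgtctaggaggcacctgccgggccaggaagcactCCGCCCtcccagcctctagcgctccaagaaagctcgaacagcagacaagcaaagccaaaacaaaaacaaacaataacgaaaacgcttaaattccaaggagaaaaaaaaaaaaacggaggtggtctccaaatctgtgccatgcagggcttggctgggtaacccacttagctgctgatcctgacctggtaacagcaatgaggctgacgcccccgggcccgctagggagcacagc
Id2, chr12:25096043-25096342, minus strand: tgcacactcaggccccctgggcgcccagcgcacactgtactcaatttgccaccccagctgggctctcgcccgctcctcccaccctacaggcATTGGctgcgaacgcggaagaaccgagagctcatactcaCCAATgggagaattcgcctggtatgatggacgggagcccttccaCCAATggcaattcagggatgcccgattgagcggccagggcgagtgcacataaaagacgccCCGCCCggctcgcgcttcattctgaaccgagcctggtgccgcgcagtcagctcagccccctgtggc
Sox2, chr3:34649745-34650044, plus strand: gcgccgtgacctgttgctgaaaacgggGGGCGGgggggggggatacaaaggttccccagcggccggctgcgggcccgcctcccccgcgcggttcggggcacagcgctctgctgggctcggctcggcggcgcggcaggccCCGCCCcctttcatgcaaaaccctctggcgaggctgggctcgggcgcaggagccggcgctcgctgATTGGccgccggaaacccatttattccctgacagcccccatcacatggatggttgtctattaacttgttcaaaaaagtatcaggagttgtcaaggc
Foxa1, chr12:57546062-57546361, minus strand: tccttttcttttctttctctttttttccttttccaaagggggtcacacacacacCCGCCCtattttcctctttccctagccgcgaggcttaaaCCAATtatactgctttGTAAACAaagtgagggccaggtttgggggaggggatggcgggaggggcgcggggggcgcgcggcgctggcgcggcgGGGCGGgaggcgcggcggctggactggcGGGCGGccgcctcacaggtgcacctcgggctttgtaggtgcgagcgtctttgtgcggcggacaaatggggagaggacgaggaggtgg

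All 4 windows held a GC box, which 35.66% of 32851 mouse promoter windows of the same length held. Id2 had 3 CCAAT boxes, Sox2 and Foxa1 had 1 each and Nkx2-1 had none, and 37.41% of all windows had at least 1. Foxa1 alone of these 4 held the forkhead motif, the kind of sequence that FOXA proteins themselves bind, found in 3.65% of windows. The Nkx2-1 window held 12 CpG dinucleotides, Id2 21, Foxa1 26 and Sox2 27, where the median window held 7 and the upper quartile was 20. These matches describe letters and not bound sites.

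Measured per length, in TPM (reads per base of transcript, scaled to the same total in each library), Nkx2-1 was the most abundant of the 10 factors in every library. In wild-type lungs it reached 431 ± 38.5 TPM (SD, n = 3), followed by Cebpa at 214 ± 10.8 TPM and Id2 at 192 ± 7.37 TPM. Foxa1 (73.6 ± 4.67 TPM), Klf5 (64.2 ± 2.20 TPM), Foxa2 (53.4 ± 3.39 TPM) and Gata6 (36.7 ± 0.64 TPM) formed the middle of the order, and from Nkx2-1 down to Sox9 no gene overlapped the next over the 3 libraries. At the lower end Sox9 (23.4 ± 6.14 TPM), Foxp2 (23.0 ± 4.74 TPM) and Sox2 (19.9 ± 6.91 TPM) overlapped each other. The length used for Foxp2 is the sum of all its annotated exons, 16346 bases against 2057 to 6508 bases for the other members, so its TPM depends on which exons are in use. In knockout lungs the order differed in places where neighbours overlap: Id2 (243 ± 34.5 TPM) and Cebpa (240 ± 17.8 TPM) exchanged places, as did Foxa2 (59.6 ± 4.30 TPM) and Klf5 (55.2 ± 6.24 TPM). Foxp2, at 36.0 ± 2.44 TPM, overlapped Gata6 at 37.3 ± 1.03 TPM and lay above Sox9 (28.8 ± 4.50 TPM) in every knockout library.

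Across the 10 factors no member passed the genotype test in edgeR at an adjusted p of 0.05, where 0.368% of the 19042 tested genes passed (0.063% higher and 0.305% lower). At an unadjusted p under 0.05 there were 4 members, Foxp2, Nkx2-1 and Id2 on the higher side and Klf5 on the lower side, where 10.7% of all tested genes lay under that level (4.71% higher and 6.02% lower). The other tools added 1 member each: DESeq2 called Foxp2 higher, where 2% of genes passed (0.339% higher and 1.67% lower), and the edgeR model that includes the title prefix called Klf5 lower, where 3.28% passed (0.746% higher and 2.54% lower). limma voom called no member, where 0.352% of genes passed (0.0525% higher and 0.299% lower). The point estimate was above 0 for 7 members and below 0 for 3, with a median log2 fold change of 0.12 beside 0.01 over all tested genes and 52.6% of those genes above 0. The members were chosen as a group of related genes and not at random, so these counts are a description.

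**Figure D1:**
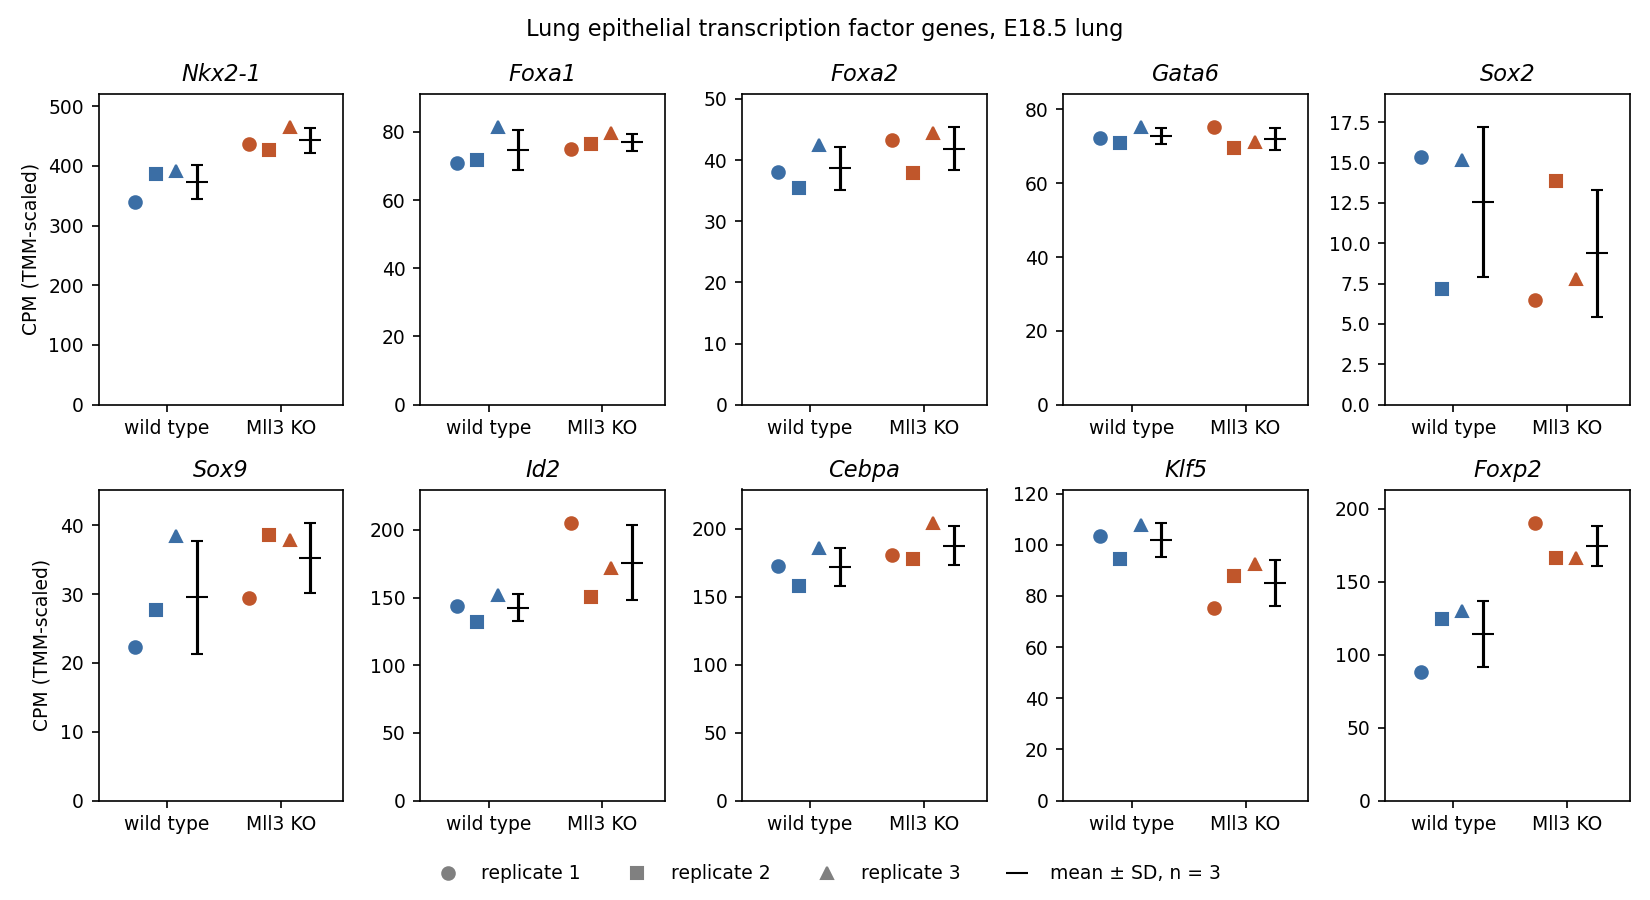
CPM after TMM scaling of each of the 10 factors in the 6 libraries (symbols, replicates 1 to 3 of each genotype), with the mean and SD (n = 3) beside them; every axis starts at 0. Nkx2-1 and Foxp2 are higher in all 3 knockout libraries than in any wild-type library and Klf5 is lower, and the genotypes overlap in the other 7 panels.

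Foxp2 (ENSMUSG00000029563, mm10 chromosome 6, 14901349 to 15441977), which encodes the forkhead repressor of distal epithelium, had the largest positive difference. Its level was 88.2, 124 and 130 CPM in wild types 1 to 3 and 190, 166 and 167 CPM in knockouts 1 to 3. Every knockout library lay above every wild-type library. Among the members 3 of 10 separated the genotypes in this way, Foxp2 and Nkx2-1 with knockout higher and Klf5 with knockout lower, where 17% of all tested genes did (8.6% higher and 8.45% lower). The wild-type mean was 114 ± 22.7 CPM and the knockout mean 175 ± 13.8 CPM (SD, n = 3), a log2 fold change of 0.61 ± 0.14 (SE) or 1.53-fold. It did not pass in edgeR (adjusted p = 0.17; 0.21 when the title prefix entered the model) and passed in DESeq2 (adjusted p = 0.00047). Wild type 1, the library with squamous epithelial genes, was the lowest, and without it the log2 fold change was 0.45 (edgeR adjusted p = 0.16). Within the first title prefix the log2 difference was 0.84, with knockout 1 as the only knockout, and within the second it was 0.36, with wild type 3 as the only wild type.

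Nkx2-1 (ENSMUSG00000001496, mm10 chromosome 12, 56531958 to 56536908, minus strand), the lung lineage homeobox gene, showed a smaller separation in the same direction. Its values were 340, 386 and 391 CPM in wild-type lungs and 436, 426 and 465 CPM in knockout lungs. The wild-type maximum and the knockout minimum were thus apart, and wild type 1 was again the lowest. The means of 373 ± 28.1 and 442 ± 20.3 CPM (SD, n = 3) gave a log2 fold change of 0.25 ± 0.08 (SE), which did not pass in edgeR (adjusted p = 0.27), with the title prefix (0.19) or in DESeq2 (adjusted p = 0.10). The log2 difference was 0.26 within the first title prefix and 0.19 within the second.

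Genes next to Nkx2-1 were read alongside it, because noncoding transcripts flank several of these factors. Sfta3-ps, a noncoding gene that lies 2531 bases downstream on the same strand, had means of 722 ± 94.3 CPM (wild type) and 803 ± 83.5 CPM (knockout) (log2 fold change 0.15 ± 0.11 SE, edgeR adjusted p = 0.69). Gm26973, which starts on the opposite strand within the Nkx2-1 locus, was at 6.74 ± 1.42 and 7.07 ± 0.53 CPM (0.07 ± 0.17, adjusted p = 0.93), and Gm47720, 31130 bases away on the same strand, at 89.1 ± 20.3 and 104 ± 24.0 CPM (0.22 ± 0.25, adjusted p = 0.82). Counting used strand, so reads of Gm26973 and Nkx2-1 are kept apart. Of 38 genes within 50 kb of any member, 14 were tested and none passed in edgeR. The steepest estimates among the 9 neighbours of at least 1 CPM were those of 9030622O22Rik, a noncoding gene 2674 bases downstream of Foxa2 (0.45 ± 0.21, adjusted p = 0.50), and Ttc6, 17197 bases upstream of Foxa1 (0.37 ± 0.14, adjusted p = 0.39). The remaining 4 such neighbours, Mipol1 by Foxa1, 1010001N08Rik antisense to the Gata6 locus, Kidins220 by Id2 and Pibf1 by Klf5, had adjusted p-values between 0.64 and 0.99 in edgeR.

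The forkhead pair differed little between genotypes. Foxa1 (ENSMUSG00000035451, mm10 chromosome 12, 57540628 to 57546916) had 70.9, 71.7 and 81.5 CPM in wild types 1 to 3 and 74.9, 76.4 and 79.7 CPM in knockout lungs. Its knockout values lay inside the wild-type range, and the log2 fold change was 0.04 ± 0.07 (SE, edgeR adjusted p = 0.88). Foxa2 (ENSMUSG00000037025, mm10 chromosome 2, 148042877 to 148046969) had 38.1, 35.4 and 42.4 CPM in wild types 1 to 3 and 43.3, 37.9 and 44.5 CPM in knockout lungs, again with overlap (0.12 ± 0.10, adjusted p = 0.71). The ratio of Foxa1 to Foxa2 per length was 1.33, 1.44 and 1.37 in wild types 1 to 3 and 1.23, 1.44 and 1.28 in knockouts 1 to 3.

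Gata6 (ENSMUSG00000005836, mm10 chromosome 18, 11052064 to 11085635) was the steadiest of the factors, its highest library being 1.08 times its lowest. It was at 72.3, 71.0 and 75.3 CPM in wild types 1 to 3 and 75.3, 69.5 and 71.3 CPM in knockout lungs. The log2 fold change of -0.02 ± 0.06 (SE, edgeR adjusted p = 0.96) was close enough to 0 that its sign depended on scaling and on single libraries, being 0.02 with library totals only. Gata6 is also used by smooth muscle and heart, so whole-lung values are not epithelial alone. Smooth muscle genes summed to 350 to 920 CPM in wild-type libraries (920 in wild type 1) and 303 to 444 CPM in knockout libraries, and their part in the Gata6 level was not tested.

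Sox2, the factor of proximal airways (ENSMUSG00000074637, mm10 chromosome 3, 34650405 to 34652461), varied more between libraries than any other member, 2.37-fold from lowest to highest. It had 15.4, 7.19 and 15.1 CPM in wild types 1, 2 and 3 and 6.49, 13.8 and 7.79 CPM in knockouts 1, 2 and 3, from 155 to 340 reads per library. Libraries with high and with low values occurred in both genotypes, so the ranges overlapped. The log2 fold change was -0.43 ± 0.41 (SE, edgeR adjusted p = 0.78) and -0.63 ± 0.44 with the title prefix in the model (adjusted p = 0.58). The log2 difference was -0.80 within the first prefix and -0.49 within the second. Single libraries moved the estimate from -0.22 without knockout 1 to -0.81 without knockout 2, and no such refit passed (edgeR adjusted p = 0.52 to 0.97).

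The same libraries were high in other airway genes. The summed level of 12 airway genes, among them the club cell secretoglobin Scgb1a1 and the cilia regulator Foxj1, was 2673, 1792 and 2921 CPM in wild types 1 to 3 and 1404, 2216 and 1792 CPM in knockouts 1 to 3, so that wild types 1 and 3 and knockout 2 led both measures. The keratin gene Krt15, part of this sum, was at 221 CPM in wild type 1, the library with squamous genes. It was at 27.0 to 70.6 CPM in the other libraries, and its source was not tested. Per 1000 CPM of those airway genes, Sox2 stood at 5.74, 4.01 and 5.18 CPM in wild types 1 to 3 and 4.62, 6.25 and 4.35 CPM in knockout lungs. Its spread from lowest to highest narrowed from 2.37-fold to 1.56-fold on this scale. The means were 4.98 ± 0.88 in wild-type and 5.07 ± 1.03 in knockout lungs (SD, n = 3). A two-sided exact permutation test on log2 values gave p = 1, where the smallest possible p is 0.10. This scale was chosen after the values were seen. Of the 11 tested airway genes 10 had estimates below 0, so the scale removes any Sox2 difference shared with them. Oesophagus also uses Sox2, and in the 3 libraries with high Sox2 the squamous sum was 605 CPM (wild type 1), 2.96 CPM (wild type 3) and 6.80 CPM (knockout 2); the part of airway or oesophageal tissue in the Sox2 level was not tested.

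Sox9, the counterpart of Sox2 in the distal tips (ENSMUSG00000000567, mm10 chromosome 11, 112782224 to 112787760), had 22.4, 27.8 and 38.5 CPM in wild types 1 to 3 and 29.4, 38.5 and 37.8 CPM in knockout lungs. The genotypes overlapped (log2 fold change 0.26 ± 0.21 SE, edgeR adjusted p = 0.72), and the libraries sorted instead by title prefix. The 3 libraries of the first prefix had 22.4 to 29.4 CPM and the 3 of the second 37.8 to 38.5 CPM, whatever their genotype, a log2 difference of 0.53. Within the first prefix the genotype difference was 0.23 on the log2 scale and within the second -0.01. Foxa1 was the other member whose prefixes did not overlap, and 14.7% of all tested genes showed such a separation (7.45% higher and 7.28% lower under the second prefix). Sox9 is also a cartilage gene. Of 10 cartilage genes, 7 were tested and none passed in edgeR, with a median log2 fold change of 0.79. At an unadjusted p under 0.05 there were 4, all higher, where 4.71% of all tested genes were higher at that level. Col9a3, a cartilage collagen gene, was at 1.73 ± 0.26 and 4.26 ± 2.17 CPM (log2 fold change 1.30, edgeR adjusted p = 0.19) and passed with the title prefix in the model (adjusted p = 0.027) and in DESeq2 (0.028). The summed level of the list, most of it from Hapln1 (log2 fold change -0.04, edgeR adjusted p = 0.92), was 101 to 119 CPM in wild-type libraries and 108 to 127 CPM in knockout libraries, whereas the defining cartilage collagen gene Col2a1 was at 0.71 ± 0.29 and 1.55 ± 0.53 CPM (SD, n = 3), and the part of cartilage in the Sox9 level was not tested. The ratio of Sox9 to Sox2 per length was 0.72, 1.92 and 1.26 in wild types 1 to 3 and 2.25, 1.39 and 2.42 in knockouts 1 to 3, with overlap between the genotypes.

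**Figure D2:**
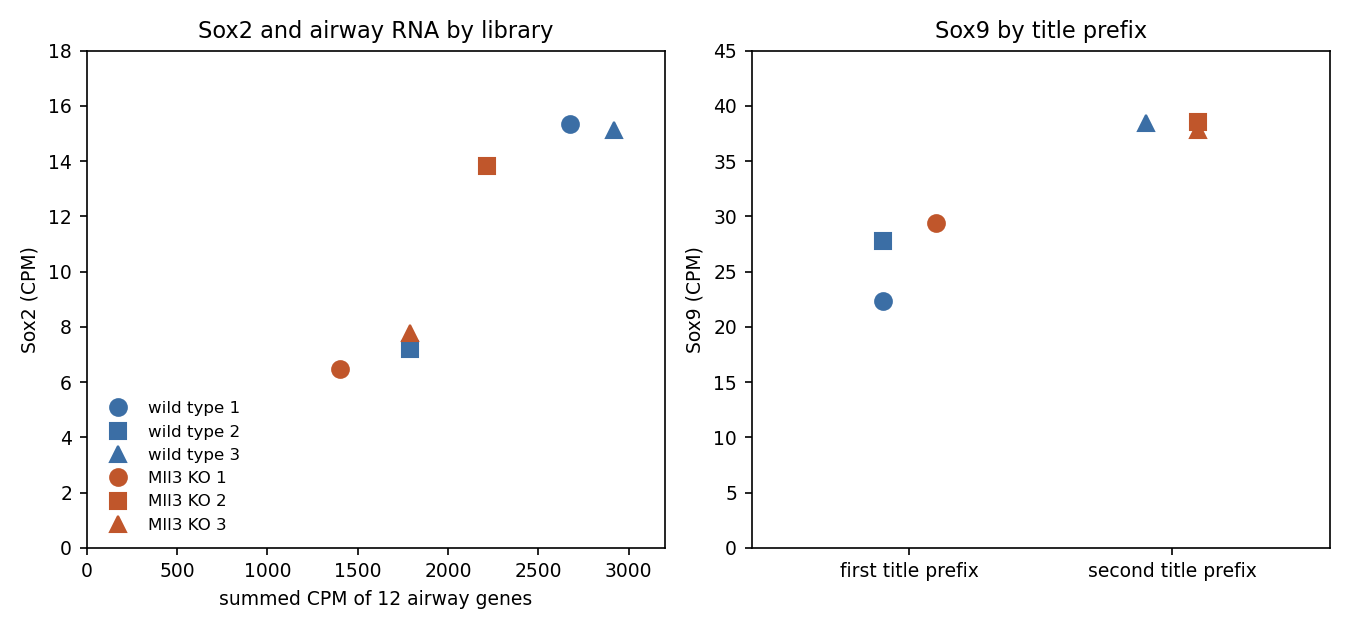
Left, Sox2 level (CPM) against the summed CPM of 12 airway genes in each library; right, Sox9 level (CPM) by the prefix in the sample titles, with wild type in blue and knockout in orange and all level axes from 0. The 3 libraries with the most airway RNA (wild types 1 and 3, knockout 2) are the 3 with Sox2 at 13.8 to 15.4 CPM, and Sox9 lies at 22.4 to 29.4 CPM under the first prefix and at 37.8 to 38.5 CPM under the second.

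Id2 (ENSMUSG00000020644, mm10 chromosome 12, 25093799 to 25097140), a dominant-negative helix-loop-helix factor of the distal tips, had 144, 132 and 152 CPM in wild types 1 to 3 and 205, 151 and 172 CPM in knockout lungs. Knockout 1 was the highest, and knockout 2 lay within the wild-type range. The log2 fold change of 0.30 ± 0.11 (SE) did not pass in edgeR (adjusted p = 0.34; 0.19 when the title prefix entered the model; 0.19 in DESeq2). It was 0.18 without knockout 1, and the log2 difference was 0.57 within the first title prefix, which holds that library, and 0.09 within the second. The related genes Id1 and Id3, read in the list of other factors, had estimates of 0.32 ± 0.13 (edgeR adjusted p = 0.43) and 0.30 ± 0.16 (adjusted p = 0.58), and knockout 1 was the highest library for both, at 86.1 CPM of Id1 and 115 CPM of Id3. Whole-lung Id2 is not epithelial alone. A list of 6 innate lymphoid and natural killer cell genes summed to 30.7 to 37.9 CPM in wild-type libraries and 22.6 to 36.1 CPM in knockout libraries. Most of this sum was Rora, at 28.4 to 35.7 CPM in wild-type and 20.6 to 31.6 CPM in knockout libraries. Only 2 of the 6 genes had enough reads to be tested, so the sum mainly follows Rora. The part of innate lymphoid and natural killer cells in the Id2 level was not tested.

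Of the maturation factors, Klf5 (ENSMUSG00000005148, mm10 chromosome 14, 99298691 to 99315036), a Krüppel-like zinc-finger gene, was lower in knockout lungs. It had 103, 94.4 and 108 CPM in wild types 1 to 3 and 75.1, 87.7 and 92.3 CPM in knockouts 1 to 3. All knockout values lay below all wild-type values. The means of 102 ± 6.76 and 85.0 ± 8.92 CPM (SD, n = 3) gave a log2 fold change of -0.26 ± 0.09 (SE), which did not pass with genotype as the only term (edgeR adjusted p = 0.28) or in DESeq2 (adjusted p = 0.19). With the title prefix in the model the estimate was -0.33 ± 0.07 and the adjusted p 0.028. The log2 difference was -0.40 within the first prefix and -0.26 within the second. Cebpa (ENSMUSG00000034957, mm10 chromosome 7, 35119293 to 35121928), a leucine-zipper gene of type 2 cell maturation, had 173, 158 and 186 CPM in wild types 1 to 3 and 181, 178 and 205 CPM in knockout lungs, which overlapped (0.12 ± 0.08, adjusted p = 0.64). Myeloid cells also use Cebpa; 7 macrophage and monocyte genes summed to 176 to 189 CPM in wild-type libraries and 155 to 170 CPM in knockout libraries, and their part in the Cebpa level was not tested.

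**Figure D3:**
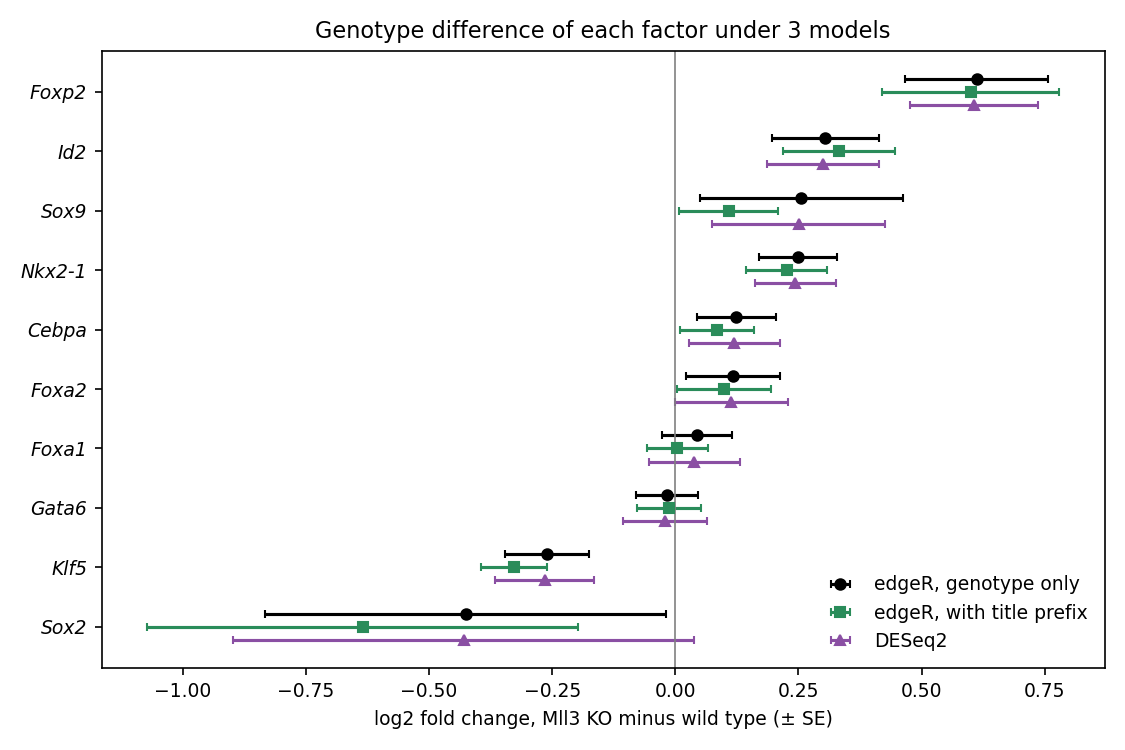
Log2 fold change (knockout minus wild type, ± SE) of each factor in edgeR with genotype only, in edgeR including the title prefix, and in DESeq2. Foxp2 lies highest at 0.61, 0.60 and 0.61, Klf5 lies at -0.26, -0.33 and -0.26, and Sox2 has the widest error bars.

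The factors were then set against the epithelium as a whole. For each library the mean log2 CPM of the 12 pan-epithelial genes was subtracted from that of the factor, which gives a level per epithelial RNA. Reads of a factor from other cell types remain in this value, so it is not a level within epithelium alone. On this scale 6 of 10 members separated the genotypes, where 13.5% of all tested genes did (8.02% higher and 5.46% lower). Foxp2 (difference 0.67), Id2 (0.34), Nkx2-1 (0.29), Cebpa (0.17) and Foxa2 (0.16) were higher in knockout lungs and Klf5 (-0.22) was lower. Each of these 6 had a two-sided exact permutation p of 0.10, the smallest that 3 libraries against 3 can give. Full separation always gives this value, so it only restates the separation. After Benjamini-Hochberg adjustment over the 10 members the permutation p of each was 0.17. Nkx2-1 relative to epithelium was 1.62, 1.90 and 1.75 in wild types 1 to 3 and 2.02, 2.05 and 2.08 in knockouts 1 to 3. Id2 was 0.38, 0.35 and 0.38 in wild-type and 0.93, 0.55 and 0.64 in knockout lungs, and Klf5 -0.10, -0.13 and -0.11 against -0.52, -0.23 and -0.26. Wild-type values of Id2 and Klf5 thus lay closer together on this scale than knockout values did.

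**Figure D4:**
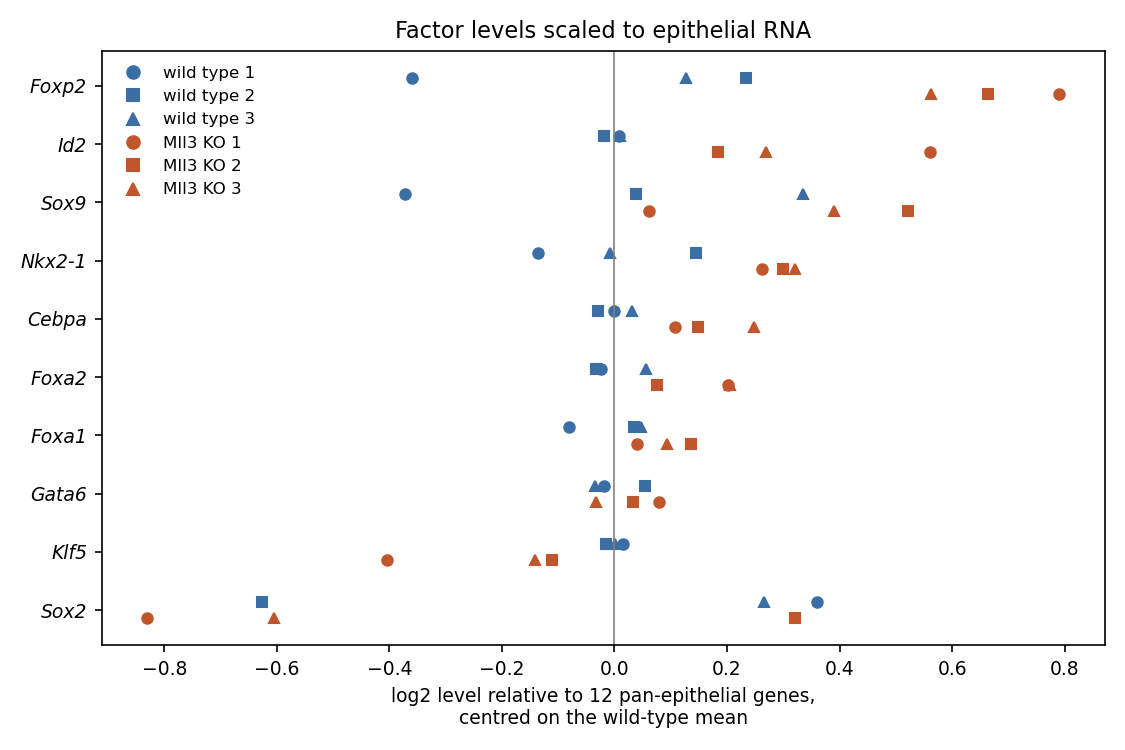
Log2 level of each factor relative to the mean of 12 pan-epithelial genes in each library (symbols), centred on the wild-type mean of that factor. For Foxp2, Id2, Nkx2-1, Cebpa and Foxa2 the 3 knockout symbols lie to the right of all wild-type symbols, and for Klf5 to the left.

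The pan-epithelial genes themselves did not move together, and this bears on that scale. None of the 12 passed in edgeR, although 5 lay under 0.05 before adjustment, where 10.7% of all tested genes did. By DESeq2, 1 was higher and 3 were lower, where 0.339% and 1.67% of genes were. With the title prefix in the model 2 fell, Krt19 and Krt18, where 2.54% of genes fell. The keratin genes Krt19 (291 ± 34.2 and 219 ± 9.95 CPM, log2 fold change -0.41, edgeR adjusted p = 0.11), Krt8 (-0.37, adjusted p = 0.11) and Krt18 (-0.37, adjusted p = 0.20) were lower in all knockout libraries, and the adhesion gene Epcam (101 ± 7.16 and 130 ± 14.8 CPM, 0.37, adjusted p = 0.13) was higher in all of them. Scaled to the 9 genes other than these keratins, Foxp2, Id2 and Nkx2-1 were still higher in every knockout library than in any wild-type library, and Klf5 and Gata6 were lower in every one, while Cebpa and Foxa2 overlapped. On that scale 16.3% of all tested genes separated the genotypes (2.64% higher and 13.6% lower). The Nkx2-1 difference was then 0.18. This scale leaves out genes seen to be lower in these data and keeps Epcam, so it is no independent check. The log2 level of the scale itself differed by 0.07 (knockout minus wild type), against -0.04 for all 12 genes. That shift lowers the difference of every factor, the new separation of Gata6 included.

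Among 36 other transcription factors of lung epithelium, 34 were tested. None passed in edgeR, and their median log2 fold change was -0.03. At an unadjusted p under 0.05, 4 were higher and 4 lower, where 4.71% of all tested genes were higher and 6.02% lower. The ETS factor Etv5, a target of FGF signalling in distal tips, was at 206 ± 20.2 and 282 ± 21.7 CPM (0.45 ± 0.09 SE, edgeR adjusted p = 0.072; 0.032 with the title prefix; 0.00046 in DESeq2). Hopx, a homeodomain cofactor of type 1 cells, was at 410 ± 37.7 and 309 ± 25.4 CPM (-0.41 ± 0.09, edgeR adjusted p = 0.11; 0.028 with the title prefix; 0.0016 in DESeq2). The Iroquois gene Irx2 was at 82.2 ± 6.41 and 101 ± 11.4 CPM (0.30 ± 0.09, adjusted p = 0.25). Wwtr1, which encodes the Hippo coactivator TAZ, was at 342 ± 14.3 and 293 ± 15.3 CPM (-0.22 ± 0.07, adjusted p = 0.27). In the edgeR model with the title prefix 1 of the 34 rose, Etv5, and 2 fell, Hopx and Foxj1 (0.0095), where 0.746% of all tested genes rose and 2.54% fell.

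Target genes of NKX2-1 and genes of the distal tips and airways were counted in the same fit. Over all tested genes 0.746% rose and 2.54% fell with the title prefix in the model, and 0.339% and 1.67% in DESeq2. The edgeR estimate was above 0 for 52.6% of them. Of 14 NKX2-1 target genes 7 had estimates above 0 and 7 below, and none passed in edgeR, with a median of 0.01. With the title prefix in the model 1 rose, Napsa, and 3 fell, Ager, Hopx and Sftpd; DESeq2 called Napsa higher and Ager and Hopx lower. The type 2 cell protease gene Napsa (331 ± 12.4 and 442 ± 31.1 CPM, 0.42, edgeR adjusted p = 0.057; 0.023 with the title prefix; 6.3e-05 in DESeq2; 0.048 in limma voom) and Lpcat1 (0.24, adjusted p = 0.37), an enzyme of surfactant lipid synthesis, were on the higher side. The type 1 cell genes Ager (1128 ± 82.7 and 824 ± 55.7 CPM, -0.45, edgeR adjusted p = 0.074; 0.032 with the title prefix; 2.0e-05 in DESeq2; 0.054 in limma voom) and Hopx were on the lower side. Sftpd, which encodes surfactant protein D, was at 265 ± 54.8 and 165 ± 52.1 CPM, with a log2 fold change of -0.69 (edgeR adjusted p = 0.52) and of -0.94 with the title prefix in the model (adjusted p = 0.033). The genotypes overlapped in the other type 2 cell genes of this list (edgeR adjusted p = 0.66 to 0.97). Their log2 fold changes were Abca3 0.16, Sftpb 0.14, Lamp3 0.11, Slc34a2 0.10, Sftpc -0.02 and Sftpa1 -0.02. Of 11 distal tip genes, which include Etv5 again, 9 had estimates above 0 and none passed in edgeR; the median was 0.17. Etv5 and Fgfr2 were the 2 that passed, both higher, with the title prefix in the model and in DESeq2. The FGF receptor gene Fgfr2 was at 473 ± 22.5 and 602 ± 17.6 CPM (0.35 ± 0.07 SE, edgeR adjusted p = 0.095; 0.046 with the title prefix; 0.00037 in DESeq2), while Etv4 (0.50, adjusted p = 0.40) and Shh (0.13, adjusted p = 0.53) were further from the threshold. Of 12 airway genes 11 were tested, 10 had estimates below 0 and none passed in edgeR. With the title prefix in the model 3 of them fell, Gabrp, Foxj1 and Cbr2 (-0.75, adjusted p = 0.011), and 1 was lower in DESeq2, Gabrp. The median of the 11 was -0.44, and it was -0.20 without wild type 1, -0.25 without wild type 3 and -0.28 without knockout 1. The lowest p was that of Gabrp (15.1 ± 3.13 and 7.85 ± 2.34 CPM, -0.95, edgeR adjusted p = 0.20; 0.0075 with the title prefix; 0.0032 in DESeq2).

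The genes most like 3 of the members in their profile over the 6 libraries were found by the root mean square difference of centred log2 CPM, among 11302 other genes of at least 10 CPM. For Nkx2-1 they were Dnase2a (0.026), Rai14 (0.027) and Alg13 (0.044), each higher in every knockout library than in any wild-type library. For Sox2 they were Gfra1 (0.18), Sfrp1 (0.20) and Mycl (0.20), which were likewise highest in wild types 1 and 3 and knockout 2. For Sox9 they were Zkscan7 (0.11), Tecrl (0.12) and Fign (0.12). The genes were picked for these profiles, so their separation by genotype or their shared high libraries follow from that choice. These are descriptions of 6 libraries, and every gene of a library shares its depth and tissue composition.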

How the data were processed

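The authors deposited a table of raw counts per gene and a table of normalized signal. Per the submitters' processing notes, bcl2fastq 2.19.1, GSNAP 2019-06-10 on mm10, featureCounts 1.6.3 and DESeq2 1.24.0 were used. Per the file headers, the counts were taken in reverse-stranded mode (setting 2) at a mapping quality of at least 1 on Ensembl release 98. The deposited signal is the counts divided by 1 size factor per library, and gave back the counts within 0.1 read for 99.94 to 100% of its genes. Per the labels' protocols, reads were 75 bp single reads of poly(A)-selected, strand-specific libraries.

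Here 92 ERCC rows (1 read) were left out, filterByExpr kept 19042 genes holding 99.8 to 99.9% of reads, and edgeR 4.0.16 (R 4.3.3; TMM, robust quasi-likelihood test, genotype as the only term, Benjamini-Hochberg over all tested genes, threshold 0.05) was the main test. The SE is the absolute log2 fold change over the square root of F. TPM used the deposited gene lengths, and log2 CPM a prior count of 2. Genotype labels gave the groups, and replicates are numbered in sample order. Replicates differed by more than sampling noise (chi-square over degrees of freedom 8.49 to 21.1). On simulated counts for 19042 genes edgeR recovered 66.7% of 1.5-fold, 93.5% of 2-fold and 97.6% of 3-fold changes in this comparison. Changes were placed only in genes above a minimum mean level. Noise was drawn for each gene on its own, without effects of title prefix, sex or tissue mix. Smaller changes, such as those of most members, were not simulated, so these rates need not hold for the real libraries. Alternatives were DESeq2 1.42.0 (genes with at least 1 read), limma 3.58.1 (voom with robust moderation, and log2 of the normalized signal plus 1), other scaling and filters, the title prefix as a term, and each library left out. The values of 1 of the other factors under the alternatives are not reported here. The members and lists were chosen with earlier results of these data known. Named genes are the members, Kmt2c, up to 4 genes of lowest p in each list described, neighbours within 50 kb of at least 1 CPM and the 3 most alike genes. Id1, Id3, Foxj1 among the other factors, Sftpd, Abca3, Sftpb, Lamp3, Slc34a2, Sftpc, Sftpa1, Cbr2, Krt15 and Hapln1 were added after their values were seen.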

Additional observations from a re-analysis of the deposited data

How the results depend on the processing

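The count of members passing in edgeR was 0 in each direction, and it changed with DESeq2 (1 higher, Foxp2) and with the title prefix as a term (1 lower, Klf5); in the other 12 alternatives it stayed at 0 in both directions. Over all tested genes the 12 higher and 58 lower became 142 and 483 with the title prefix, 58 and 285 in DESeq2 and 103 and 340 with no filter beyond 1 read. Without single libraries they ran from 0 to 5 higher and from 0 to 36 lower, being 0 and 0 without wild type 2 or wild type 3 (781 higher and 1173 lower, and 611 and 1018, at an unadjusted p under 0.05), and 0 and 3 without wild type 1. The causes were not tested. Gata6 changed sign with library totals only (0.017) and in 2 of the refits without 1 library (0.0018 without wild type 3 and 0.0083 without knockout 2). Without single libraries Gata6 ran from -0.053 to 0.0083. The other 9 members kept their sign in all 14 alternatives. The log2 fold change of Foxp2 ran from 0.45 to 0.71, of Nkx2-1 from 0.18 to 0.28, of Klf5 from -0.33 to -0.18, of Id2 from 0.18 to 0.40, of Sox9 from 0.087 (without wild type 1) to 0.49 (without wild type 3) and of Sox2 from -0.81 to -0.22. Small estimates moved by over 1.5 times without 1 library: Cebpa from 0.12 to 0.060 without wild type 2 and 0.055 without knockout 3, Foxa2 from 0.12 to 0.052 without wild type 2, 0.18 without wild type 3, 0.19 without knockout 2 and 0.069 without knockout 3, and Foxa1 from 0.044 to 0.0043, 0.0090 and 0.10 without wild types 1, 2 and 3 and 0.015 without knockout 3. No paired analysis was possible because the replicate numbers follow sample order and the labels pair no samples; the title prefix took its place. At 155 to 340 reads per library, counting error is largest for Sox2 among the members. For 33 other factors, 428 of the alternative values kept direction and call, 25 changed sign, none of them past the threshold, and 9 came to pass it (4 for Etv5, 3 for Hopx and 1 each for Irx2 and Foxj1). Signs changed with the title prefix for Elf5 -0.011, Ovol2 -0.039 and with library totals for Nfib 0.0039, Spdef 0.011. Without single libraries the log2 fold changes that crossed 0 ran as follows: Grhl3 -1.47 to 0.057, Trp63 -2.05 to 0.91, Tfcp2l1 -0.28 to 0.0090, Tead1 -0.14 to 0.024, Ovol1 -0.47 to 0.0029, Sox4 -0.048 to 0.12, Hes1 -0.24 to 0.087, Foxp1 -0.11 to 0.062, Elf3 -0.27 to 0.10, Nfib -0.13 to 0.10, Elf5 -0.053 to 0.079, Ovol2 -0.12 to 0.16, Spdef -0.12 to 0.10.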
